A study of Mus musculus with 30 samples.

Results

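Notch, Wnt, BMP and Hedgehog signalling genes were followed in the subventricular zone (SVZ), the stem cell niche along the lateral ventricle of the adult brain, and in the adjacent striatum. The set was chosen by name: 49 ligands, receptors, antagonists and target genes, of which 13 belong to Notch, 15 to Wnt, 14 to BMP and 7 to Hedgehog. All 49 were found among the 53278 genes of the SVZ count table and the 50508 genes of the striatum table. Earlier results of these data were known when the set was chosen. RNA of both tissues was sequenced from the same 15 adult mice, with 1 library for each mouse and tissue. NestinTK+ mice carry viral thymidine kinase under the second intron enhancer of Nestin, which is active in neural precursors, and ganciclovir (GCV) kills dividing cells that hold this enzyme. GCV or PBS was delivered for 4 weeks by a minipump under the skin. The 5 NestinTK+GCV+ mice (A1 to A5 in the order of their numbers) received both transgene and drug. The 10 control mice were 3 wild-type littermates given GCV (NestinTK-GCV+, G1 to G3), 3 wild-type littermates given PBS (NestinTK-PBS+, P1 to P3) and 4 transgenic mice given PBS (NestinTK+PBS+, T1 to T4). The mice were adults, females and males, and neither the sex nor the age of a single mouse is labelled. The study lists C57Bl/6 and transgenic mice, and the strain of the NestinTK line is not given in the sources used here. Each mouse was a separate animal, so the tests measure the spread between mice.

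In the adult SVZ these pathways pass between the precursors, the ependymal cells, the astrocytes and the vessels of the niche. Notch receptors bind Delta and Jagged ligands on the neighbouring cell and switch on Hey and Hes repressors, which hold stem cells out of the cycle. Wnt ligands bind Frizzled receptors with the coreceptor Lrp6, stabilise beta-catenin and act through Tcf/Lef factors on targets such as Axin2, while Dkk and Sfrp proteins are secreted modulators. BMP ligands bind type I and type II receptors and switch on the Id genes through SMAD proteins, and Noggin (Nog), which ependymal cells secrete, keeps BMP ligands from their receptors. Sonic hedgehog (Shh) binds Ptch1, which frees Smo to activate Gli factors; Ptch1 and Gli1 are also targets of the pathway.

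The promoters of 3 members on which the results turn are shown, each as the 250 bases before a start site given by RefSeq for GRCm38.p6, in the direction of transcription. Id4 had the highest level per kb of all members in the SVZ and the lowest adjusted p-value of the members between groups in the striatum. Bmp4 had no count in the SVZ of NestinTK-GCV+ mice. Tcf7l2 stood far apart in the striatum of a single mouse. No annotated exon lies in these windows. Capitals mark GGCGCC, a motif bound by SMAD proteins of the BMP pathway.
Id4 (chr13:48260866-48261115, plus strand): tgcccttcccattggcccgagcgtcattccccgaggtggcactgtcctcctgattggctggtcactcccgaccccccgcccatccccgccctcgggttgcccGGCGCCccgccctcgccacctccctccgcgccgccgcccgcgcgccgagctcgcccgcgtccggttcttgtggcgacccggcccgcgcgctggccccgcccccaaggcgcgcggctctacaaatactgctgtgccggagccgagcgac
Bmp4 (chr14:46390670-46390919, minus strand): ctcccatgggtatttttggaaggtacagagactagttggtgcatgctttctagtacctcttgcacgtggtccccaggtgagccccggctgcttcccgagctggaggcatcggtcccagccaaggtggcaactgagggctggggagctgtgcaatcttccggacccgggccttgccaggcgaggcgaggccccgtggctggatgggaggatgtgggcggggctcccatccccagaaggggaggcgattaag
Tcf7l2, first start site (chr19:55741560-55741809, plus strand): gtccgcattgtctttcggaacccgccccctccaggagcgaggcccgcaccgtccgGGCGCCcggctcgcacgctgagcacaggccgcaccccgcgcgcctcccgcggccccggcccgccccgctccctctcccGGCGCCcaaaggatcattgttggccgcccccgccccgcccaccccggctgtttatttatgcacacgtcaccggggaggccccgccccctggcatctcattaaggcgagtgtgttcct
The motif GGCGCC, which reads the same on both strands, occurred 1 time before Id4, 148 bases upstream of the start, and 2 times before Tcf7l2, at 195 and 117 bases. It was not among the letters of the Bmp4 window. G and C made up 75.6% of the Id4 window, 72.8% of the Tcf7l2 window and 63.2% of the Bmp4 window, against a median of 52.4% over all promoters of the table. Of the 33 members with an entry in the table, 10 held GGCGCC before at least 1 start site (Bmpr1a, Bmpr2, Dll1, Fzd9, Id2, Id4, Lef1, Numbl, Ptch1 and Tcf7l2). Of all 32851 single promoters of the same length, 9.59% held it. A member can have several promoters, so members and promoters are unlike units, here and for the next motifs. The RBPJ motif GTGGGAA of Notch stood in 2 members, Bmpr2 and Hey2, and in 5.42% of all promoters, with both strands searched. The Tcf/Lef motif CTTTGAA stood in none of the 33 and in 4.46% of all promoters. The GLI motif GGGTGGT stood in Gli2 and Lef1 and in 3.92% of all promoters.

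Some libraries stood apart before any group was compared. In the SVZ the summed level of 10 choroid plexus markers was 46363 to 101880 CPM (counts-per-million of the library total) in the control mice P1, P2 and T3 and 17.2 to 830 CPM in the other 12 mice. The same 3 libraries were set apart by 10 markers of meningeal fibroblasts, with 89.2 to 125 CPM against 3.83 to 39.1 CPM. In the striatum of T2 the sum of 8 markers of thalamic neurons was 1534 CPM against 96.6 to 164 CPM elsewhere, and the choroid plexus sum was 1539 CPM against 13.0 to 55.7 CPM. Medium spiny neurons, the main neurons of the striatum, had a marker sum of 4427 CPM in T2 and of 8432 to 11100 CPM in the other mice. Markers of cortical excitatory neurons summed to 677 CPM in the striatum of G2, 405 in T4 and 236 in T2, and to 47.3 to 179 CPM in the other mice. In the SVZ they summed to 772 CPM in G2, 597 in A5 and 36.9 to 183 CPM in the other mice. A5 was also the lowest SVZ library in markers of medium spiny neurons, with 3289 CPM, and of oligodendrocytes, with 2414 CPM. The part of these cells in the SVZ values of A5 and G2 was not tested. The markers of dividing cells summed to 13.3 to 39.4 CPM in the SVZ of NestinTK+GCV+ mice and to 42.5 to 195 CPM in control mice. Neuroblast markers summed to 381 to 639 CPM and 514 to 1145 CPM. The SVZ samples are labelled as neural precursor cells, and all 12 neuroblast markers were detected, but medium spiny neuron markers summed to 3289 to 12234 CPM in the same libraries. Ependymal markers summed to 26.5 to 241 CPM in NestinTK+GCV+ mice and 107 to 414 CPM in control mice. Total counts ran from 8360810 to 21056005 in the SVZ and from 2626962 to 4693441 in the striatum. The NestinTK+GCV+ libraries were at the low end, with at most 9595103 and 3371033.

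No niche signalling gene passed the call between NestinTK+GCV+ and control mice in the SVZ. All 49 members passed the filter of more than 1 CPM in at least 3 libraries. A call required both a change of at least 2-fold and a nominal p of 0.01 or less. None of the 49 met it, where 1.59% of the 16375 genes tested were called by edgeR's quasi-likelihood test. DESeq2 called 1 member, Bmp6 (3.01% of all genes), and limma-voom 0 (1.04%). At an unadjusted p-value under 0.05 there were 2 members, Bmp6 and Sfrp1, both lower, which is 4.08% of the members against 9.81% of all genes tested. No member reached an adjusted p-value under 0.05, as did 0.00611% of all genes, and in no member did the NestinTK+GCV+ mice lie apart from all control mice, as they did in 0.256% of all genes. The median log2 fold change was -0.09 for Notch, -0.22 for Wnt, -0.30 for BMP and 0.12 for Hedgehog members, against -0.03 for all genes tested. With 1 mouse left out these medians ran from -0.24 to 0.09 for Notch, from -0.33 to -0.05 for Wnt, from -0.48 to -0.27 for BMP and from -0.26 to 0.33 for Hedgehog; the Notch sign turned without A4 or P3 and the Hedgehog sign without A2, A3 or A4. Against NestinTK-GCV+ mice alone the median was 0.26 for Notch and 0.03 for BMP. Lower values in NestinTK+GCV+ mice were found in 8 of 13 Notch, 10 of 15 Wnt, 9 of 14 BMP and 2 of 7 Hedgehog members. Without P1, P2 and T3, 0 of the 48 members then tested had an unadjusted p-value under 0.05 (edgeR), against 6.13% of all genes. A bulk library cannot tell fewer cells of a type from less RNA in each cell.

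**Figure D1:**
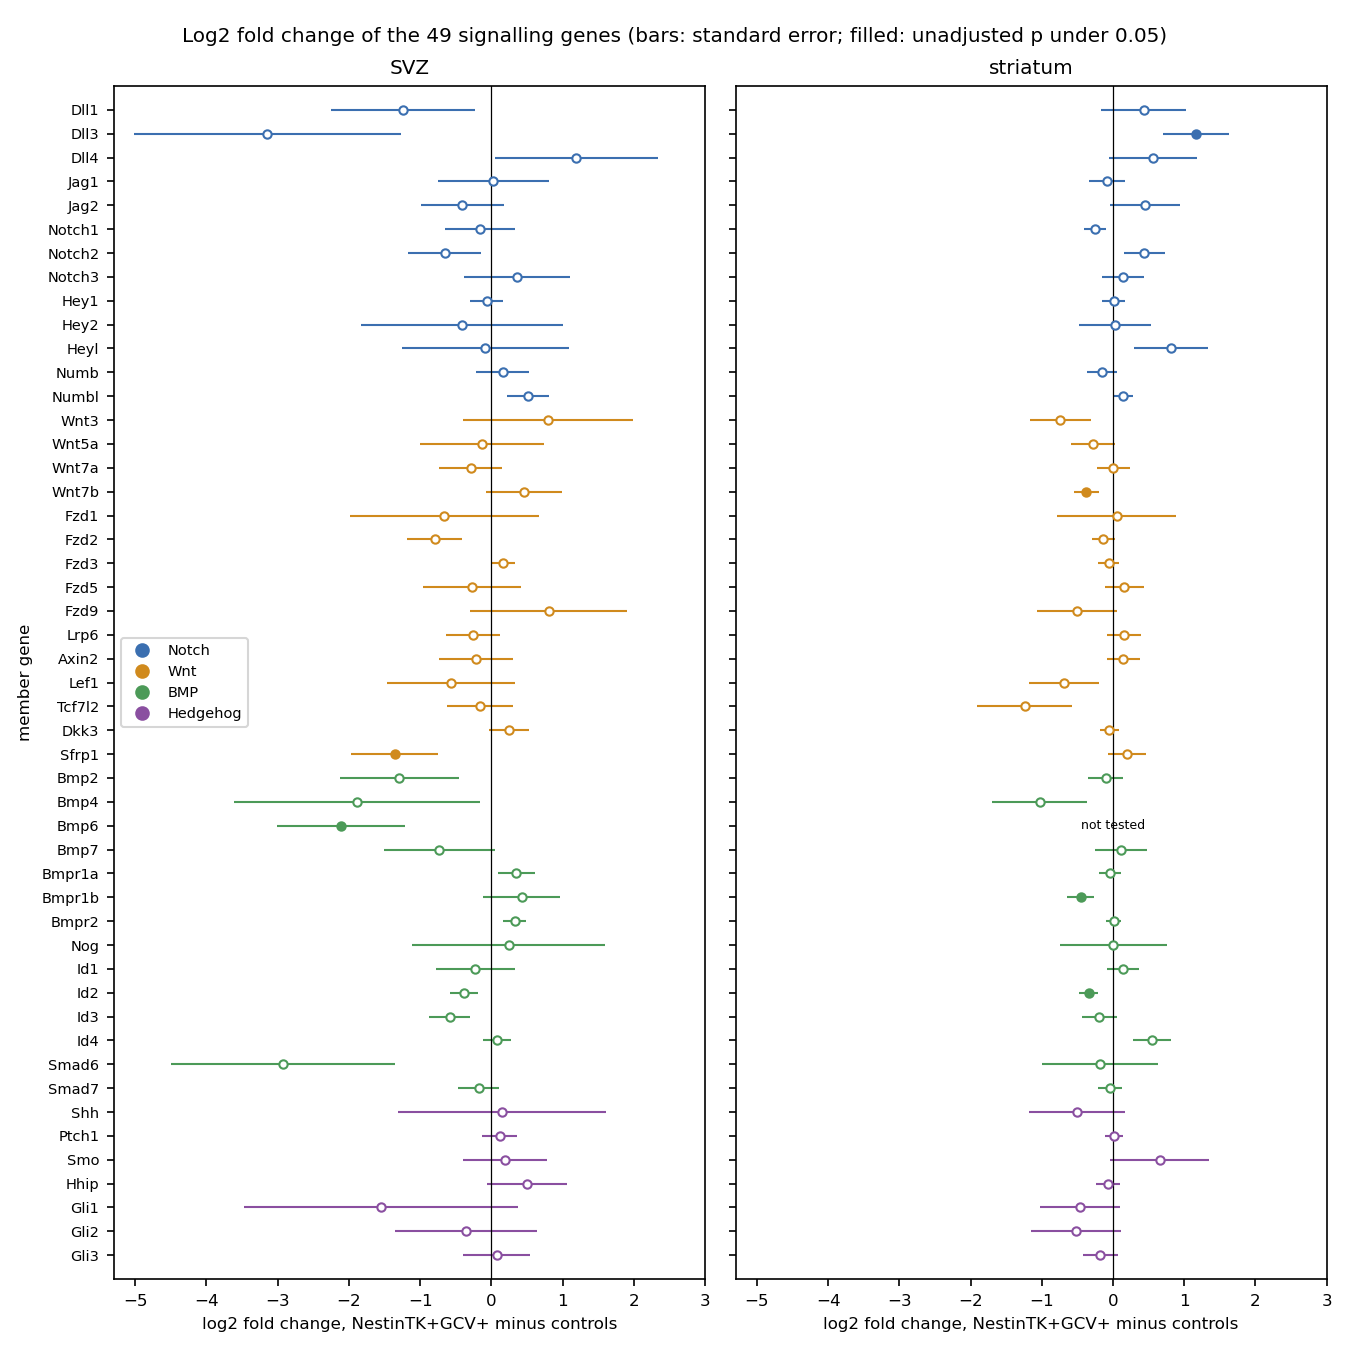
Log2 fold change of each member between the 5 NestinTK+GCV+ and the 10 control mice (x axis) for the genes named on the y axis, in the SVZ (left) and the striatum (right). Points are fitted values, bars standard errors, colours pathways, and filled points have an unadjusted p-value under 0.05: Bmp6 and Sfrp1 in the SVZ, and Dll3, Wnt7b, Bmpr1b and Id2 in the striatum.

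The SVZ levels of the members, given as CPM per kb of exon because whole transcripts were sequenced there, ran over more than 2 orders of magnitude. The BMP targets of the Id family, which block the binding of bHLH factors to DNA, stood at the top. In control mice Id4 had 85.1 ± 15.5 CPM per kb (SD, n = 10), Id3 67.9 ± 20.0 and Id2 66.7 ± 14.3, and neighbours in this order overlapped within 1 SD. Dkk3, a secreted protein of the Dickkopf family, followed with 42.4 ± 14.9 CPM per kb, Id1 with 31.7 ± 27.7 and the Notch target Hey1 with 20.9 ± 5.64. The receptors Bmpr1a and Fzd3 had 16.2 ± 4.91 and 13.3 ± 2.94 CPM per kb, and neighbours in this stretch of the order overlapped within 1 SD. Ligands lay lower. The highest was Wnt7a with 9.92 ± 3.26 CPM per kb, and Bmp6, Bmp7 and Jag2 had 4.05 ± 4.00, 3.50 ± 3.15 and 4.50 ± 3.10. At the lower end stood Shh with 0.33 ± 0.54 and Gli1 with 0.21 ± 0.52 CPM per kb. Exons of Shh overlap with other annotated genes over 28.3% of their length, and those of Dll1, Fzd5 and Lef1 over 20.6%, 17.8% and 13.7%. Whether strand was used in counting is not given in the sources used here, and without it reads of such partners cannot be told apart from theirs.

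**Figure D2:**
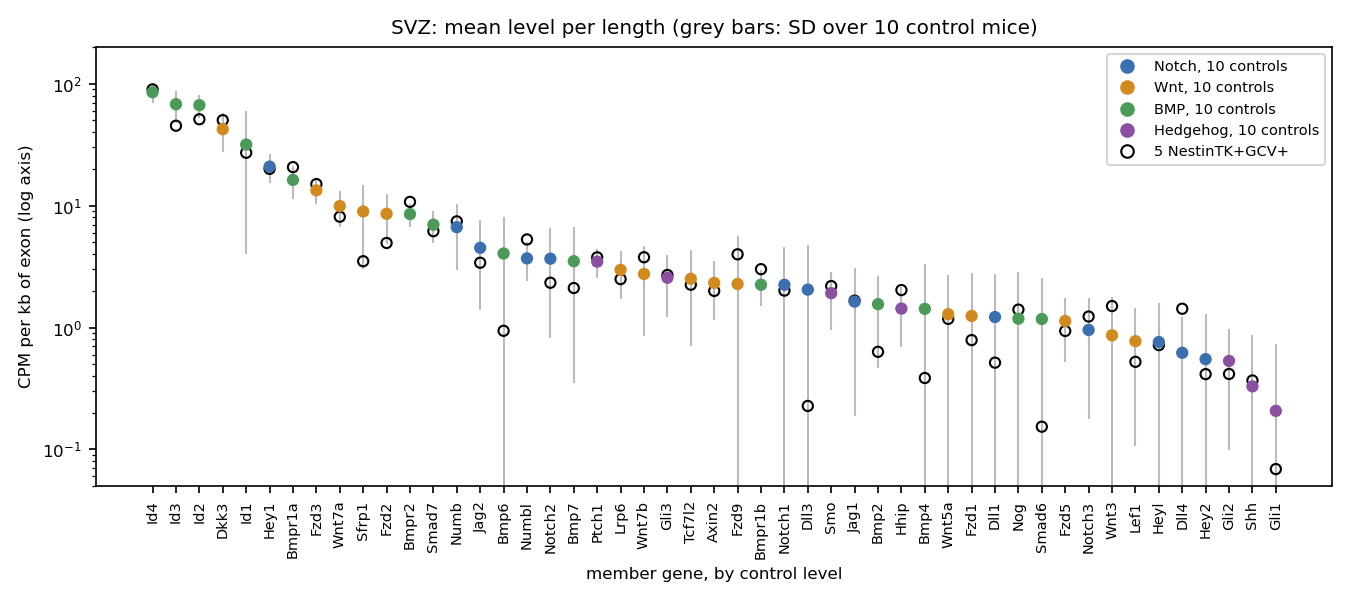
SVZ level of the 49 members, in CPM per kb of exon on a log axis, ordered by the mean of the 10 control mice (filled, coloured by pathway, bars: SD); open circles give the mean of the 5 NestinTK+GCV+ mice. Id4, Id3 and Id2 led with 85.1, 67.9 and 66.7 CPM per kb, and Gli1 was lowest with 0.21.

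The member of each pathway with the highest CPM in the SVZ had overlapping groups. Hey1 measured 63.8, 85.6, 64.7, 36.9 and 75.7 CPM in A1 to A5, 59.0, 76.7 and 42.5 in G1 to G3, 50.9, 80.5 and 99.1 in P1 to P3, and 80.9, 58, 50.4 and 84.1 in T1 to T4. Its groups overlapped over nearly their whole range, with a log2 fold change of -0.06 (standard error, SE, 0.23). Fzd3, a Wnt receptor, measured 166, 159, 202, 223 and 211 CPM in A1 to A5, 187, 175 and 237 in G1 to G3, 147, 116 and 183 in P1 to P3, and 172, 142, 132 and 216 in T1 to T4. Its NestinTK+GCV+ mice lay inside the range of the GCV-treated and transgenic controls, with a log2 fold change of 0.17 (SE 0.17). Id4 measured 464, 426, 307, 374 and 159 CPM in A1 to A5, 405, 227 and 319 in G1 to G3, 260, 317 and 363 in P1 to P3, and 365, 385, 267 and 366 in T1 to T4. The highest and the lowest of all 15 values both came from NestinTK+GCV+ mice, and the log2 fold change was 0.08 (SE 0.20). Ptch1, the receptor and target of Hedgehog, measured 60.1, 77.9, 33.5, 45.4 and 50.2 CPM in A1 to A5, 56.0, 26.8 and 62.6 in G1 to G3, 59.8, 48.9 and 37.2 in P1 to P3, and 58.2, 66.1, 39.0 and 37.9 in T1 to T4. The groups overlapped, and the log2 fold change was 0.12 (SE 0.25).

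Bmp6 and Sfrp1 had the lowest p-values of the members in the SVZ, and both were highest in P1, P2 and T3. Bmp6, a BMP ligand on chr13:38345107-38500302 (GRCm38, as for all gene positions given here), measured 0.32, 1.44, 6.94, 0.98 and 8.65 CPM in A1 to A5, 9.34, 6.14 and 0.55 in G1 to G3, 42.1, 21.6 and 9.37 in P1 to P3, and 5.02, 12.5, 44.8 and 6.47 in T1 to T4. The 3 highest values came from the choroid plexus-rich libraries P1, P2 and T3, and G2, G3, T1 and T4 lay among the NestinTK+GCV+ mice. Means were 3.67 ± 3.84 CPM (SD, n = 5) and 15.8 ± 15.6 (SD, n = 10), a log2 fold change of -2.11 (SE 0.90, adjusted p = 0.44, edgeR). Sfrp1, a secreted Wnt modulator on chr8:23411502-23449632, measured 12.9, 27.6, 4.09, 1.84 and 30.0 CPM in A1 to A5, 46.8, 11.2 and 26.5 in G1 to G3, 89.8, 52.1 and 16.0 in P1 to P3, and 20.5, 14.1, 66.6 and 47.8 in T1 to T4. The same 3 libraries were again highest, and the other control mice overlapped the NestinTK+GCV+ mice. Means were 15.3 ± 13.0 CPM (SD, n = 5) and 39.1 ± 26.0 (SD, n = 10), a log2 fold change of -1.36 (SE 0.61, adjusted p = 0.47, edgeR). Without P1, P2 and T3 the log2 fold change was -0.95 for Bmp6 (adjusted p = 0.95) and -0.78 for Sfrp1 (adjusted p = 0.92). Leaving out 1 mouse at a time moved these values between -2.70 and -1.77 for Bmp6 and between -1.75 and -1.07 for Sfrp1.

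P1, P2 and T3 lay above all other SVZ libraries in 5 of 49 members, Notch2, Hey2, Sfrp1, Bmp6 and Bmp7, as they did in 2.08% of all genes tested. Bmp7, another BMP ligand, measured 26.3 to 36.5 CPM in these 3 libraries and 0.35 to 16.4 in the other 12. Hey2, a Notch target, measured 6.31 to 8.35 CPM against 0 to 5.95. Notch2, a receptor on chr3:98013527-98150361, measured 23.3, 32.2, 17.4, 38.7 and 14.1 CPM in A1 to A5, 18.7, 6.82 and 18.4 in G1 to G3, 92.0, 84.9 and 30.3 in P1 to P3, and 17.0, 19.5, 66.5 and 41.3 in T1 to T4. Outside the 3 libraries its control mice lay around the NestinTK+GCV+ mice. The log2 fold change of Notch2 was -0.65 (SE 0.51, adjusted p = 0.74) against all controls and 0.21 without P1, P2 and T3. The part that choroid plexus or meningeal tissue had in these values was not tested. Nog, the BMP antagonist of the niche, had 2.38 ± 2.52 CPM (SD, n = 5) and 2.00 ± 2.86 (SD, n = 10), with T2 above all others at 8.18 CPM. It was the 1 of 49 members with T2 highest, as T2 was in 11.2% of all genes tested in the SVZ. Septal neuron markers summed to 831 CPM in the SVZ of T2 and 70.7 to 148 CPM in the other mice. Thalamic neuron markers summed to 400 CPM against 68.3 to 172 CPM. The part of these neurons in the Nog value was not tested.

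**Figure D3:**
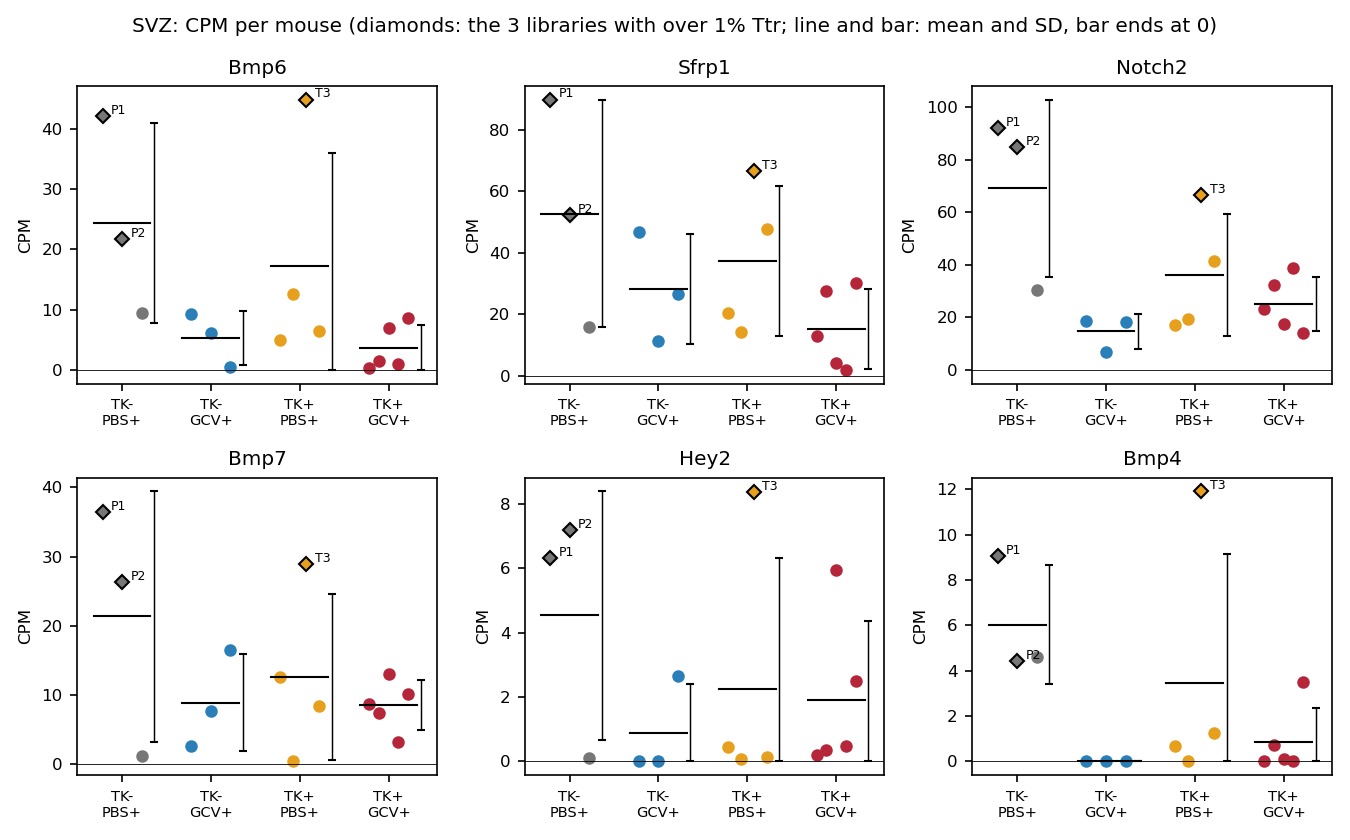
SVZ level in CPM (y axis) of 6 members in each mouse, by group (x axis: TK stands for NestinTK); lines and bars are means and SD, with bars ending at 0. Diamonds mark P1, P2 and T3, whose libraries hold over 1% of their counts on Ttr, and which lie above all other mice for Bmp6, Sfrp1, Notch2, Bmp7 and Hey2; Bmp4 is at 0 in the 3 NestinTK-GCV+ mice.

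Direct targets give a further view of the pathways in the SVZ. Among BMP targets, Id3 had 81.0 ± 36.5 CPM (SD, n = 5) in NestinTK+GCV+ mice and 122 ± 35.8 (SD, n = 10) in control mice, a log2 fold change of -0.59 (SE 0.28, adjusted p = 0.51). Id2 and Id1 had log2 fold changes of -0.38 (SE 0.20) and -0.22 (SE 0.56). Of the inhibitory SMADs, Smad7 had -0.18 (SE 0.28) and Smad6, with at most 11.8 CPM in any mouse, -2.92 (SE 1.57). For Wnt, Axin2 had -0.22 (SE 0.52) and Lef1 -0.56 (SE 0.90), and for Hedgehog Gli1 had a median of 0 CPM in control mice. Among receptors, Fzd2 had 18.1 ± 6.22 CPM (SD, n = 5) and 31.4 ± 13.8 (SD, n = 10), a log2 fold change of -0.80 (SE 0.38, adjusted p = 0.51), while Bmpr2 had 193 ± 17.1 and 153 ± 32.6, a log2 fold change of 0.33 (SE 0.16, adjusted p = 0.52). Fzd2, Bmpr2, Id3 and Smad6 had no unadjusted p-value under 0.05 in edgeR with TMM factors. With DESeq2 each of them did, and with limma-voom Bmpr2 alone did. Of the Notch ligands, Dll3 was at 0 counts in A1, A3, A4 and A5 and in 4 of the 10 control mice, with 27 counts in A2 and up to 243 in control mice. Its log2 fold change was -3.15 (SE 1.88, adjusted p = 0.62).

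The other SVZ members are given by role, with the log2 fold change between NestinTK+GCV+ and all control mice; none had an unadjusted p-value under 0.05 (edgeR). The remaining Notch ligands had values of -1.24 for Dll1, 1.20 for Dll4, 0.03 for Jag1 and -0.41 for Jag2, with Jag2 at 7.92 to 83.1 CPM in NestinTK+GCV+ and 10.1 to 84.5 CPM in control mice. The remaining Notch receptors had -0.16 for Notch1 and 0.36 for Notch3, and the targets Hey2 and Heyl had -0.41 for Hey2 and -0.09 for Heyl. Numb and Numbl, which inhibit Notch, had 0.16 for Numb and 0.52 for Numbl, with Numbl at 31.1 to 78.1 CPM in NestinTK+GCV+ and 20.5 to 49.4 CPM in control mice. Of the Wnt ligands, the values were 0.80 for Wnt3, -0.13 for Wnt5a, -0.29 for Wnt7a and 0.46 for Wnt7b, and Wnt7a lay at 5.24 to 43.7 CPM in NestinTK+GCV+ and 12.5 to 50 CPM in control mice. The receptors had -0.66 for Fzd1, -0.27 for Fzd5, 0.81 for Fzd9 and -0.25 for Lrp6, the factor Tcf7l2 -0.16 and the modulator Dkk3 0.25. Groups overlapped in each of these genes. Of the BMP members, the ligand Bmp2 had -1.29 and the receptors had 0.35 for Bmpr1a and 0.42 for Bmpr1b. The Hedgehog members had 0.16 for Shh, 0.19 for Smo, -0.36 for Gli2 and 0.08 for Gli3, and the decoy receptor Hhip had 0.51, with 3.24 to 41 CPM in NestinTK+GCV+ and 3.21 to 24.7 CPM in control mice.

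The 4 groups of the SVZ were also compared in a single fit, in which contrasts share mice. No member was called between NestinTK+GCV+ and NestinTK+PBS+ mice (1.19% of all genes), between NestinTK+GCV+ and NestinTK-GCV+ mice (0.94%), between NestinTK+PBS+ and NestinTK-PBS+ mice (0.195%) or in the interaction of genotype and treatment (0.837%), by edgeR, the 1 tool run on these contrasts. At an unadjusted p-value under 0.05 these contrasts held 1, 1, 1 and 3 members, against 7.13%, 7.45%, 2.69% and 5.09% of all genes. Between NestinTK-GCV+ and NestinTK-PBS+ mice, which carry no transgene, 2 of 49 members were called, Notch2 and Bmp4, against 1.06% of all genes. Notch2 had 14.7 ± 6.78 CPM (SD, n = 3) with GCV and 69.1 ± 33.8 (SD, n = 3) with PBS, a log2 fold change of -2.24 (SE 0.61, adjusted p = 0.65), and -1.07 without P1, P2 and T3, when it was no longer called. That fit leaves P3 as the 1 mouse of the NestinTK-PBS+ group, which is then assumed to vary like the other groups. Bmp4, a BMP ligand on chr14:46383520-46390669, measured 0, 0.72, 0.12, 0 and 3.49 CPM in A1 to A5, 0 in each of G1 to G3, 9.06, 4.43 and 4.63 in P1 to P3, and 0.69, 0, 11.9 and 1.26 in T1 to T4. The NestinTK-GCV+ mice were at 0 counts and the NestinTK-PBS+ mice at 42 to 188 counts. With a floor of 3 counts per library, which covers counting error only, Bmp4 was at least 22.6-fold lower in NestinTK-GCV+ than in NestinTK-PBS+ mice. Its call was lost without P1, P2 and T3, and also without G1, G2, G3 or P1 alone, but its fitted log2 fold change, which depends on the prior count, stayed between -9.35 and -8.67 in all 17 alternatives. The Notch2 call was also lost without G2, with a log2 fold change of -1.89.

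In the striatum the pooled comparison again called no member. Of the 49, 48 passed the filter; Bmp6, with at most 0.65 CPM in any mouse, did not. Where 0.694% of the 15419 genes tested were called by edgeR's quasi-likelihood test, none of the 48 members was, while DESeq2 and limma-voom each called 1, Dll3. The share of all genes that those tools called in the striatum is not given here, so this call is not set against it. At an unadjusted p-value under 0.05 there were 4 members, Dll3 higher and Wnt7b, Bmpr1b and Id2 lower, which is 8.33% against 10.5% of all genes. No member had an adjusted p-value under 0.05 (0.182% of all genes) or groups that did not overlap (0.532%). The median log2 fold change was 0.15 for Notch, -0.06 for Wnt, -0.04 for BMP and -0.18 for Hedgehog members, against 0.00 for all genes. Higher values in NestinTK+GCV+ mice were found in 10 of 13 Notch members, and in 6 of 15 Wnt, 5 of 13 BMP and 2 of 7 Hedgehog members. Striatum libraries read the 3′ end of each transcript, so their CPM are not divided by length, and they are on another scale than the SVZ values.

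Among Notch members of the striatum, Dll3, a divergent Delta ligand on chr7:28293553-28302238, measured 2.55, 4.23, 4.32, 4.81 and 5.08 CPM in A1 to A5, 1.90, 1.89 and 1.25 in G1 to G3, 3.27, 1.43 and 3.15 in P1 to P3, and 0, 2.67, 1.05 and 1.85 in T1 to T4. Of the NestinTK+GCV+ mice, 4 lay above every control mouse and A1 lay among them. These values rest on 9 to 14 counts in each NestinTK+GCV+ library and 0 to 15 in each control library. The log2 fold change was 1.17 (SE 0.46, adjusted p = 0.36). Numbl, an inhibitor of Notch and the Notch member with the highest CPM in the striatum, measured 179, 249, 257, 248 and 229 CPM in A1 to A5, 206, 222 and 180 in G1 to G3, 235, 206 and 230 in P1 to P3, and 208, 122, 223 and 266 in T1 to T4. T2 was the lowest and the groups overlapped otherwise, with a log2 fold change of 0.15 (SE 0.13).

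Wnt7b, a Wnt ligand on chr15:85535437-85582473, measured 35.2, 38.8, 49.2, 34 and 39.5 CPM in A1 to A5, 40.8, 78.9 and 49.8 in G1 to G3, 51.3, 44.6 and 46.0 in P1 to P3, and 29.8, 58.5, 45.9 and 66.1 in T1 to T4. T1 was the lowest of all mice, and A3 lay in the middle of the control mice. The 3 highest values were those of G2, T4 and T2, the libraries with the highest sums of cortical neuron markers, whose part in the difference was not tested. The log2 fold change was -0.38 (SE 0.17, adjusted p = 0.45). Bmpr1b, a type I BMP receptor on chr3:141837136-142169425, measured 15.6, 17.3, 16.3, 18.9 and 9.80 CPM in A1 to A5, 20.9, 20.8 and 24 in G1 to G3, 13.7, 21.7 and 15.2 in P1 to P3, and 18.5, 30.2, 25.5 and 23.6 in T1 to T4. The NestinTK+GCV+ mice lay below all NestinTK-GCV+ mice and, but for A5, among the NestinTK-PBS+ mice, with a log2 fold change of -0.46 against all controls (SE 0.19, adjusted p = 0.40). Ptch1 measured 36.9, 42.6, 34.6, 35.5 and 49 CPM in A1 to A5, 39.2, 37.5 and 35.8 in G1 to G3, 42.7, 37.4 and 36.3 in P1 to P3, and 39.6, 49.4, 40.9 and 32.5 in T1 to T4. Its groups overlapped, with a log2 fold change of 0.02 (SE 0.12). Dkk3, the Wnt member with the highest CPM, measured 62.1, 62.7, 65.1, 71.0 and 68.2 CPM in A1 to A5, 63.9, 87.8 and 61.3 in G1 to G3, 59.3, 71.2 and 73.3 in P1 to P3, and 83.1, 43.5, 66.4 and 72.7 in T1 to T4. T2 was lowest and G2 highest, with the NestinTK+GCV+ mice between them and a log2 fold change of -0.05 (SE 0.13).

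The other striatum members, none of which had an unadjusted p-value under 0.05 against all controls (edgeR), are given in the same way. The remaining Notch ligands had log2 fold changes of 0.43 for Dll1, -0.08 for Jag1 and 0.45 for Jag2, and the receptors -0.25 for Notch1, 0.44 for Notch2 and 0.14 for Notch3. The Notch targets had 0.01 for Hey1, 0.03 for Hey2 and 0.81 for Heyl, and Numb had -0.16. The remaining Wnt ligands had -0.74 for Wnt3, -0.28 for Wnt5a and 0.01 for Wnt7a and the Frizzled receptors 0.05 for Fzd1, -0.13 for Fzd2, -0.06 for Fzd3, 0.16 for Fzd5 and -0.51 for Fzd9. The Wnt target Axin2 had 0.15, the factor Lef1 -0.69 and the modulator Sfrp1 0.20. Among BMP members the ligands had -0.10 for Bmp2, -1.03 for Bmp4 and 0.11 for Bmp7, the receptors -0.04 for Bmpr1a and 0.01 for Bmpr2, the antagonist Nog 0.01 and the inhibitory SMADs -0.19 for Smad6 and -0.04 for Smad7. The Hedgehog members had -0.51 for Shh, 0.66 for Smo, -0.07 for Hhip, -0.46 for Gli1, -0.52 for Gli2 and -0.18 for Gli3. Smo, which carries the Hedgehog signal into the cell, lay at 0.705 to 2.33 CPM in NestinTK+GCV+ and 0 to 2.14 CPM in control mice, and Gli3 at 7.94 to 14.4 CPM in NestinTK+GCV+ and 7.4 to 18.6 CPM in control mice. The groups of both overlapped.

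In the striatum the fit with 4 groups called single members between groups, Id4 and Id3 of the BMP targets among them. Id4, on chr13:48261228-48266026, measured 254, 400, 196, 297 and 310 CPM in A1 to A5, 78.0, 120 and 88.8 in G1 to G3, 139, 351 and 327 in P1 to P3, and 248, 179, 259 and 204 in T1 to T4. Each NestinTK-GCV+ mouse lay below each of the other 12 mice. Group means were 292 ± 75.3 CPM (SD, n = 5) for NestinTK+GCV+, 95.6 ± 21.8 (SD, n = 3) for NestinTK-GCV+, 272 ± 116 (SD, n = 3) for NestinTK-PBS+ and 222 ± 37.8 (SD, n = 4) for NestinTK+PBS+ mice. Against NestinTK-GCV+ mice, NestinTK+GCV+ mice had a log2 fold change of 1.61 (SE 0.25, adjusted p = 0.0026). Among mice without the transgene, GCV went with a log2 fold change of -1.51 (SE 0.27, adjusted p = 0.010), and among transgenic mice with 0.39 (SE 0.22, adjusted p = 0.58). The interaction, which is the effect of GCV in NestinTK+ minus that in NestinTK- mice, was 1.90 (SE 0.34, adjusted p = 0.021). Against all controls pooled the value was 0.55 (SE 0.27, adjusted p = 0.48). Without any 1 mouse the contrast of the GCV-treated groups stayed between 1.47 and 1.80, with adjusted p-values of at most 0.029. The interaction stayed called, but its adjusted p-value rose to 0.055 without A2, 0.067 without G3, 0.11 without P2 and 0.11 without P3. That of the GCV contrast without transgene rose to 0.12 without G3, 0.11 without P2 and 0.083 without P3. The SVZ of the same mice had Id4 means between 313 and 346 CPM in all 4 groups.

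Id3, on chr4:136143497-136145755, measured 108, 208, 207, 132 and 137 CPM in A1 to A5, 116, 141 and 60.3 in G1 to G3, 209, 283 and 265 in P1 to P3, and 138, 232, 192 and 175 in T1 to T4. Its NestinTK-GCV+ mice lay below all NestinTK-PBS+ mice and overlapped the NestinTK+GCV+ mice. Between NestinTK-GCV+ and NestinTK-PBS+ mice the log2 fold change was -1.26 (SE 0.26, adjusted p = 0.018), which became -0.97 and was no longer called without G3. The interaction was 1.04 (SE 0.33, adjusted p = 0.12). Id2, on chr12:25093799-25097140, measured 138, 111, 177, 146 and 168 CPM in A1 to A5, 212, 253 and 200 in G1 to G3, 217, 156 and 165 in P1 to P3, and 151, 173, 168 and 181 in T1 to T4. In contrast to Id4, the NestinTK-GCV+ mice were at the upper end, above every NestinTK+GCV+ mouse. Between these groups the log2 fold change was -0.59 (SE 0.15, adjusted p = 0.034), and against all controls it was -0.34 (SE 0.13, adjusted p = 0.35). Id1 had 22.1 ± 6.95 CPM (SD, n = 5) and 20.0 ± 5.94 (SD, n = 10), with a log2 fold change of 0.66 against NestinTK-GCV+ mice (SE 0.27, adjusted p = 0.19). The adjusted p-value of Id2 lay between 0.052 and 0.14 without A1, A2, A4, A5, G1, G2 or G3.

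Lrp6, the Wnt coreceptor, on chr6:134446476-134566965, measured 46.8, 49.7, 39.6, 62.5 and 42.8 CPM in A1 to A5, 22.6, 33.5 and 21.5 in G1 to G3, 27.3, 78.4 and 60.7 in P1 to P3, and 47.2, 61.7, 44.9 and 34.7 in T1 to T4. All 3 NestinTK-GCV+ mice lay below the NestinTK+GCV+ and NestinTK+PBS+ mice, and P1 lay among them. Between NestinTK-GCV+ and NestinTK-PBS+ mice the log2 fold change was -1.09 (SE 0.28, adjusted p = 0.044), and the call was lost without G3 (-0.98) or P2 (-0.76). Against NestinTK-GCV+ mice, NestinTK+GCV+ mice had 0.89 (SE 0.26, adjusted p = 0.059). Dll4, a Notch ligand of vessels on chr2:119325784-119335962, measured 1.70, 1.41, 1.66, 2.96 and 1.45 CPM in A1 to A5, 0.27, 0.24 and 0.25 in G1 to G3, 1.53, 4.53 and 1.21 in P1 to P3, and 1.09, 1.07, 1.57 and 0.37 in T1 to T4. The NestinTK-GCV+ mice had 1 count in each library, as did T4, whose higher CPM comes from its smaller library, and the other mice had 4 to 19 counts. From summed counts the ratio of NestinTK+GCV+ to NestinTK-GCV+ mice was 7.62 (95% interval 2.35 to 39.3) and that of NestinTK-PBS+ to NestinTK-GCV+ mice 9.81 (3.06 to 50.1), with exact intervals that cover counting error only. The call of Dll4 between the GCV-treated groups was lost without A4, G1, G2 or G3, with a fitted log2 fold change of 2.48 to 2.78 over the fits with 1 mouse left out. That between the groups without transgene was lost without G2 or P2, with -3.41 to -2.29.

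In CPM, all NestinTK-GCV+ mice lay below all other mice in 2 of 49 members, Id4 and Dll4, a pattern held by 2.33% of all genes tested in the striatum. For Dll4 this does not hold in counts, since T4 also had 1 count. In total 2 of 48 members were called between NestinTK+GCV+ and NestinTK-GCV+ mice, Dll4 and Id4 (2.1% of all genes), and 2 had an adjusted p-value under 0.05, Id2 and Id4 (3.13%). Between NestinTK-GCV+ and NestinTK-PBS+ mice 4 were called, Dll4, Lrp6, Id3 and Id4 (2.46%), and 3 had an adjusted p-value under 0.05, Lrp6, Id3 and Id4 (2.06%). The interaction called 5, Dll4, Lrp6, Bmpr1b, Id3 and Id4 (3.28%), and Id4 had an adjusted p-value under 0.05 (0.817%). These contrasts share the NestinTK-GCV+ mice, so that the counts are not separate findings. Markers of ependymal cells, 10 genes, summed to 16.2 to 22.4 CPM in the striatum of NestinTK-GCV+ mice and 36.7 to 76.5 CPM in the others. Those of astrocytes summed to 4893 to 5609 CPM in NestinTK-GCV+ mice and 4513 to 5544 CPM in the others. Oligodendrocyte markers summed to 2550 to 3280 CPM in NestinTK-GCV+ mice and 3524 to 5253 CPM in NestinTK-PBS+ mice, of which P2 and P3 were highest in these markers and in Id4, Id3 and Lrp6. They summed to 2415 to 3089 CPM in NestinTK+GCV+ mice and 3055 to 6794 CPM in NestinTK+PBS+ mice. T2 was highest in these markers, and it had the highest Id3 and Lrp6 of its group but the lowest Id4. Microglia markers summed to 632 to 727 CPM in NestinTK-GCV+ mice and 519 to 636 CPM in the others. The part of these cells in the differences was not tested. The numbers that the labels give the libraries are 1 to 10 for GCV-treated mice and higher for PBS-treated mice, so that drug and numbering cannot be told apart, while both GCV-treated groups fall in the first range. The numbers of the mice begin with 34 in all NestinTK-PBS+ mice and with 40 in all NestinTK+GCV+ mice. The other groups hold both, so contrasts with NestinTK-PBS+ mice cannot be fully told apart from mouse number.

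**Figure D4:**
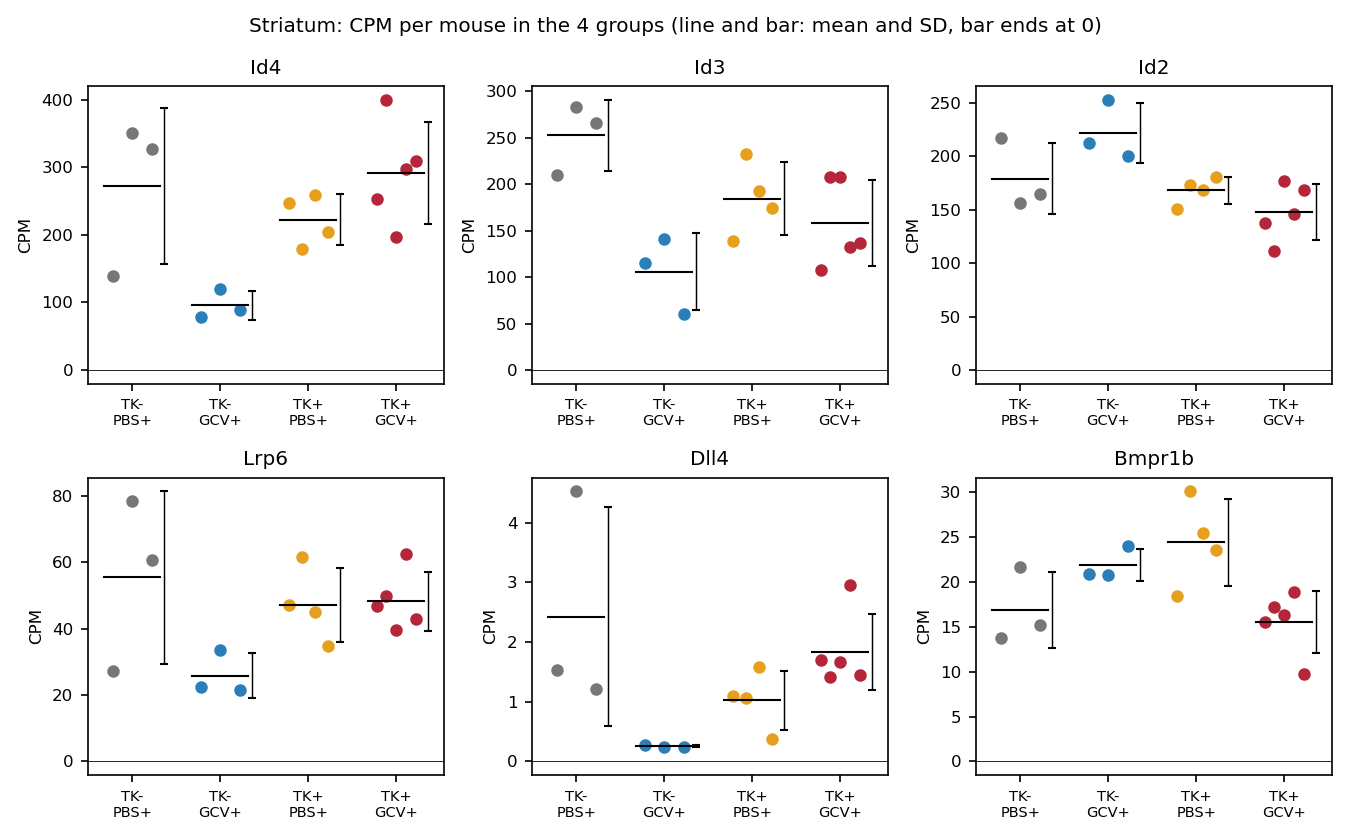
Striatum level in CPM (y axis) of 6 members in each mouse, by group (x axis: TK stands for NestinTK); lines and bars are means and SD, with bars ending at 0. NestinTK-GCV+ mice lie below all others for Id4 (78.0 to 120 CPM) and above every NestinTK+GCV+ mouse for Id2; for Dll4 they hold 1 count each, as does T4.

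T2, a NestinTK+PBS+ mouse, lay above all other mice in 10 of 49 striatum members, a share close to the 17.8% of all genes tested in which it did so. These were Notch1, Notch3, Wnt3, Wnt5a, Fzd1, Lef1, Tcf7l2, Bmp4, Bmpr1b and Ptch1. Tcf7l2, a Tcf/Lef factor that is also strong in thalamic neurons, on chr19:55741820-55933654, measured 39.7, 22.6, 18.9, 7.03 and 23.6 CPM in A1 to A5, 20.4, 21.5 and 22.3 in G1 to G3, 17.9, 22.4 and 18.9 in P1 to P3, and 19.8, 338, 32.8 and 22.1 in T1 to T4. T2 lay far above all other mice, whose groups overlapped. Tcf7l2 was called between NestinTK+GCV+ and NestinTK+PBS+ mice, with a log2 fold change of -2.19 (SE 0.57, adjusted p = 0.12), the 1 member called there (1.35% of all genes). It was also the 1 member called between NestinTK+PBS+ and NestinTK-PBS+ mice (0.83%), with 2.39 (SE 0.69, adjusted p = 0.68). Without T2 these values were -0.14 and 0.34, and neither was called; the second call was also lost without P1 (2.32). Of the other Wnt members highest in T2, Lef1 had 35.2 CPM in T2 and at most 10.2 elsewhere, the ligand Wnt3 26.7 and at most 9.44, the ligand Wnt5a 24.8 and at most 13.7, and the receptor Fzd1 7.74 and at most 2.22. T2 lay below all others in 5 members, Numbl, Fzd2, Fzd3, Dkk3 and Sfrp1 (11.3% of all genes). The part of thalamic tissue in these values was not tested; the thalamic marker sum was 1534 CPM in T2 and at most 164 CPM elsewhere.

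**Figure D5:**
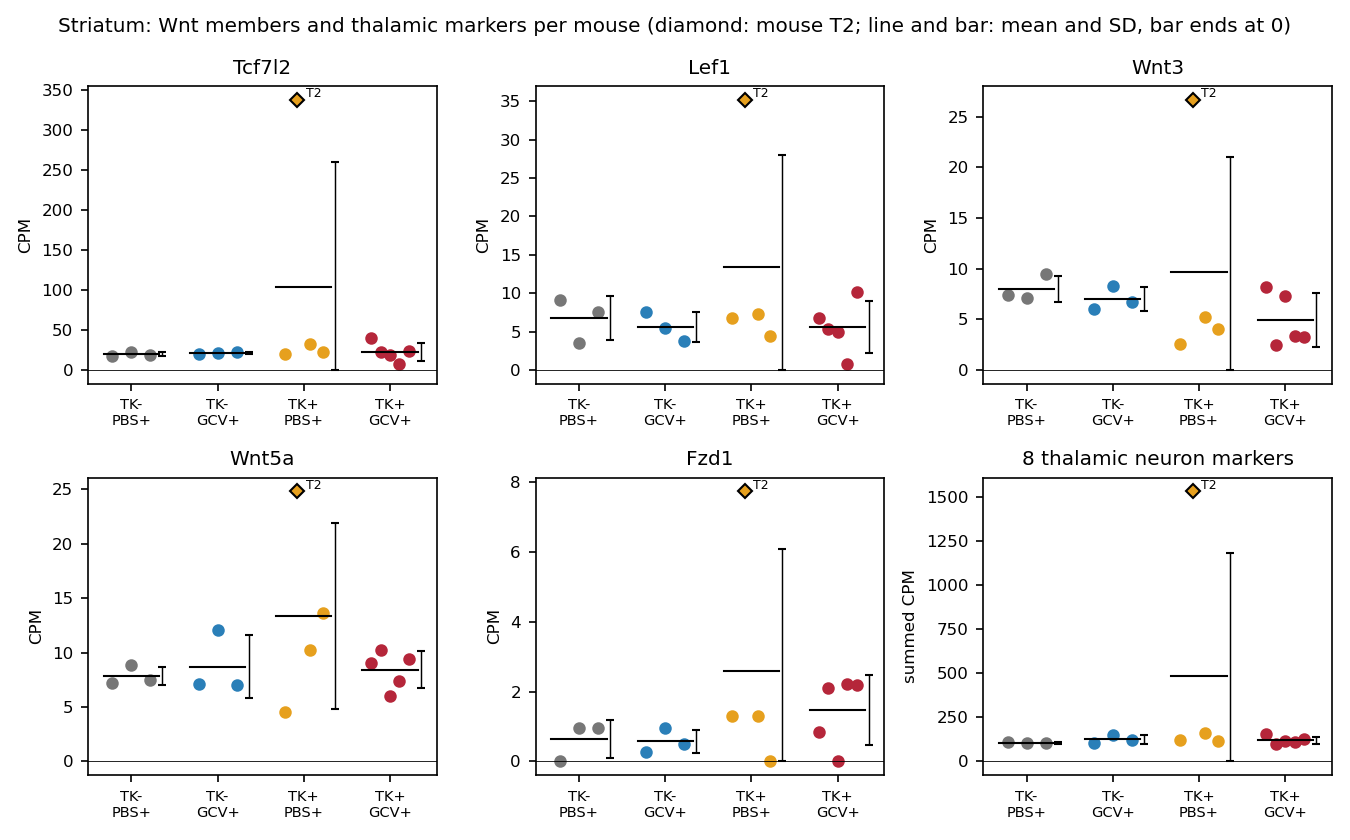
Striatum level in CPM (y axis) of 5 Wnt members, and the summed CPM of 8 thalamic neuron markers, in each mouse by group (x axis: TK stands for NestinTK); lines and bars are means and SD, with bars ending at 0. The diamond is T2, which lies above all other mice in each panel, at 338 CPM for Tcf7l2 and 1534 CPM for the markers.

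A list of 164 further genes of the 4 pathways (ligands, receptors, processing enzymes, modulators and targets) was read from the same fits. In the SVZ 133 were tested, 64 lower and 69 higher in NestinTK+GCV+ mice, with a median log2 fold change of 0.02, and 7 had an unadjusted p-value under 0.05, 3 lower and 4 higher, where 9.81% of all genes did. Of them 1 was called (1.59% of all genes), Hes1, a repressor that Notch induces and that is also active in precursors. Hes1 measured 1.28, 1.56, 0.37, 1.10 and 5.44 CPM in A1 to A5, 4.02, 15.4 and 5.40 in G1 to G3, 9.44, 22.8 and 2.53 in P1 to P3, and 5.71, 15.2, 7.82 and 16.1 in T1 to T4. Of the NestinTK+GCV+ mice, 4 lay below all control mice and A5 lay among them, with a log2 fold change of -2.42 (SE 0.76, adjusted p = 0.36). The sum of dividing cell markers was below the control range in all 5 NestinTK+GCV+ mice, and its part in this value was not tested. In the striatum 136 were tested, 80 lower and 56 higher, with a median of -0.04, and 18 had an unadjusted p-value under 0.05, 11 lower and 7 higher, where 10.5% of all genes did. There 3 were called (0.694% of all genes), Dlk1, Chrdl2 and Boc. Dlk1, a transmembrane protein related to Delta, measured 53.1, 66.2, 44.2, 54.4 and 88.9 CPM in A1 to A5, 8.43, 7.56 and 58.3 in G1 to G3, 24.9, 25.5 and 9.92 in P1 to P3, and 21.5, 22.7, 41.7 and 25.1 in T1 to T4. All control mice but G3 lay below the NestinTK+GCV+ mice, with a log2 fold change of 1.32 (SE 0.32, adjusted p = 0.087). Chrdl2, a BMP antagonist, and Boc, a Hedgehog coreceptor, lay at 0 to 1.45 and 0 to 4.80 CPM.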

How the data were processed

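For each tissue the authors deposited a table of read counts by gene, not normalized. Per the labels and the study's methods, SMART-Seq v4 was used for the SVZ and QuantSeq for the striatum, and reads were trimmed with Trimmomatic (0.36 in the labels, an earlier version in the methods), aligned with STAR 2.5.3a to GRCm38 and counted with featureCounts. Groups came from the labels. Reads were amplified without molecular identifiers, so counting intervals cover counting error only.

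Each tissue was fitted apart on the genes that exceeded 1 CPM in 3 or more libraries, with TMM factors and edgeR's quasi-likelihood test (edgeR 4.0.16, R 4.3.3), first 5 NestinTK+GCV+ against 10 control mice, then as 4 groups. P-values were adjusted by Benjamini-Hochberg over all genes tested. A call needed a nominal p of at most 0.01 and a 2-fold change. Standard errors of log2 fold changes were derived from the test, as the absolute log2 fold change divided by the square root of its F statistic. They are thus not a separate estimate of error. CPM of members are TMM-scaled, and marker sums are plain CPM. The shares of all genes in which P1, P2 and T3, T2 or the NestinTK-GCV+ mice lay above or below all others also use plain CPM. Scripts were tested on simulated counts.

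Members and lists were chosen with earlier results of these data known. Values of every mouse are given for members called, with an unadjusted p under 0.05 or highest in CPM of their pathway; further pathway genes are named where called or at an adjusted p under 0.05. Others named were chosen after their values were seen. Alternatives were RLE and upper-quartile factors, DESeq2 1.42.0, limma-voom (limma 3.58.1), other filters, control sets and thresholds, mice numbered from 40, and leaving out mice.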

Additional observations from a re-analysis of the deposited data

Results flagged for a closer look

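In groups of 4 to 10 mice, a value was singled out where its gap to the nearest other value, as a share of the group's range on the log2(CPM + 1) scale, exceeded Dixon's critical value for that group size. This held in 7 of 60 groups examined. The genes had been picked by p-value, call or level in the same data, and NestinTK+PBS+ mice were examined again among all controls. No chance share can therefore be set beside this count. In the SVZ, Id4 was 267 CPM in T3, with the next NestinTK+PBS+ mouse at 365. In the striatum, Dll3 was 2.55 CPM in A1 with the next NestinTK+GCV+ mouse at 4.23, and 0.0 in T1 with the next control mouse at 1.05. Dll4 was 2.96 CPM in A4 with the next at 1.70, and 4.53 in P2 with the next control mouse at 1.57. Numbl was 122 CPM in T2 with the next control mouse at 180, and Tcf7l2 was 338 CPM in T2 with the next at 32.8.

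In the striatum the interaction term of the fit with 4 groups was called in 5 of 48 members, against 3.28% of all genes. It was 1.90 for Id4 (SE 0.34, adjusted p = 0.021), 1.12 for Lrp6 (SE 0.36, adjusted p = 0.13), 1.04 for Id3 (SE 0.33, adjusted p = 0.12) and -1.02 for Bmpr1b (SE 0.33, adjusted p = 0.13). Dll4 had 3.88 (SE 1.13, adjusted p = 0.090), a fitted value that rests on 1 count in each NestinTK-GCV+ library and depends on how such counts are shrunk. Only the Id4 term had an adjusted p-value under 0.05. The Id4 term stayed called in all 17 alternatives, with values from 1.67 to 2.24. The calls of Lrp6, Id3 and Bmpr1b were each lost when single mice were left out.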

How the results depend on the processing

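Of the counts of members called under an alternative, 191 stayed within 1.5 times the reported count and 33 did not. In the SVZ the pooled count of 0 became 1 with DESeq2 (Bmp6, against 3.01% of all genes). With 1 mouse left out it was 0 to 2. Dll3 was called without A2 (1.69% of all genes), and Smad6 and Jag2 without A5 (1.48%). In the striatum the pooled count of 0 became 1 with DESeq2 and 1 with limma-voom (Dll3), and 2 against NestinTK-GCV+ mice alone (Dll4, Id4). It was 1 against NestinTK+PBS+ mice alone (Tcf7l2), 1 with mice numbered from 40 (Dll3) and 0 without any 1 mouse. The shares of all genes called are not given here for these striatum alternatives.

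Without P1, P2 and T3, an alternative chosen for the contrasts after seeing the data, the members called changed. The SVZ contrast of NestinTK-GCV+ and NestinTK-PBS+ mice then called Notch1 and Tcf7l2 in place of Notch2 and Bmp4. The NestinTK-PBS+ group is then P3 alone and is assumed to vary like the other groups; Notch1 had 124 CPM in P3 and at most 50.9 CPM in any other mouse. Notch1 was also called in the SVZ between the PBS-treated genotypes and in the interaction. In the striatum the contrast of the PBS-treated genotypes then called no member, and the interaction called Lrp6, Axin2 and Id4. With 1 mouse in a group, these calls are not counted against all genes.

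With 1 mouse left out, also added after seeing the data for the contrasts, SVZ counts ran from 0 to 1 (NestinTK+GCV+ against NestinTK+PBS+), 0 to 3 (NestinTK-GCV+ against NestinTK-PBS+) and 0 to 1 (NestinTK+PBS+ against NestinTK-PBS+). Striatum counts ran from 1 to 2, 1 to 2 (NestinTK+GCV+ against NestinTK-GCV+), 2 to 5, 0 to 2 and, for the interaction, 2 to 6.

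Directions of single genes turned 6 times. Notch2 in the SVZ was 0.78 against NestinTK-GCV+ mice alone and 0.21 without P1, P2 and T3. Tcf7l2 in the striatum was 0.038 with DESeq2, 0.053 against NestinTK-GCV+ mice alone and 0.038 without T2, and ran from -1.56 to 0.038 with 1 mouse left out. Id3 in the striatum was 0.56 against NestinTK-GCV+ mice alone. Pathway medians turned in the SVZ, to 0.26 (Notch) and 0.03 (BMP) against NestinTK-GCV+ mice alone and to -0.03 (Hedgehog) against NestinTK+PBS+ mice alone, and in the striatum to 0.01 (Hedgehog) without P1, P2 and T3. The cause was not tested.

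No paired analysis was possible because the groups compared within a tissue share no mouse. Members at a few counts, such as Dll3 and Dll4 in the striatum and Gli1 and Shh in the SVZ, allow no statement on changes of small size, and with 3 to 5 mice in a group the spread between SVZ libraries limits the rest.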

Other observations

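Further genes of the 4 pathways were called, or had an adjusted p-value under 0.05, in contrasts between the 4 groups. In the striatum, Psenen, a subunit of the gamma-secretase that cuts Notch, measured 2.00 to 2.72 CPM in NestinTK-GCV+ mice and 4.26 to 12.6 in the other groups. Its log2 fold change was 1.66 between NestinTK+GCV+ and NestinTK-GCV+ mice (SE 0.42, adjusted p = 0.032, edgeR) and -1.97 between NestinTK-GCV+ and NestinTK-PBS+ mice (SE 0.44, adjusted p = 0.025). Nrarp, a feedback target of Notch, had -0.91 in the latter contrast (SE 0.20, adjusted p = 0.023) and Ryk, a Wnt receptor, -0.80 (SE 0.19, adjusted p = 0.028). Tcf7, a Tcf/Lef factor, had 1.35 between the GCV-treated groups (SE 0.34, adjusted p = 0.028), and Acvrl1, a BMP receptor of endothelium, -1.03 (SE 0.21, adjusted p = 0.0097), with 57.1 to 87.6 CPM in NestinTK-GCV+ and 20.7 to 45.9 CPM in NestinTK+GCV+ mice. These contrasts share the NestinTK-GCV+ mice.

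Counts of calls follow, with log2 values in brackets and the share of all genes called after them. Between the GCV-treated groups 5 of 136 further genes were called (Dlk1 1.30, Psenen, Tcf7, Rspo2 -2.74 and Acvrl1), against 2.1%. Between NestinTK-GCV+ and NestinTK-PBS+ mice 3 were called (Psenen, Fzd6 -1.30 and Tcf7 -1.10), against 2.46%. Between NestinTK+GCV+ and NestinTK+PBS+ mice 1 was called (Dlk1 1.14), against 1.35%. Between NestinTK+PBS+ and NestinTK-PBS+ mice 1 was called (Wnt9a 3.19), against 0.83%. The interaction called 5 (Aph1a -1.06, Psenen 2.12, Wnt2 1.5, Tcf7 1.76 and Rspo2 -4.84), against 3.28%. Rspo2 had 23.8 CPM in G2 against 0 and 2.25 in G1 and G3.

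In the SVZ, 3 of 133 were called between NestinTK-GCV+ and NestinTK-PBS+ mice (1.06% of all genes), Hes5 (-2.0), Ndp (4.29) and Sostdc1. Sostdc1 was also the 1 called between NestinTK+GCV+ and NestinTK+PBS+ mice (-4.75), against 1.19% of all genes. Sostdc1, a secreted BMP and Wnt antagonist, measured 225 to 391 CPM in the choroid plexus-rich libraries P1, P2 and T3 and 0 to 12.6 CPM in the other 12 mice.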
